A study of Homo sapiens with 8 samples.

Results

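Cytosolic, chaperonin and mitochondrial chaperone genes were followed in MDA-MB-231, a mesenchymal line from human breast cancer, treated with 5 µM c-di-GMP for 24 h. This cyclic dinucleotide is a second messenger of bacteria. The list named 36 genes by symbol, and 35 of the 16383 genes of the count table carried one of these names. CRYAB, a small heat shock protein, was not analysed here. The 4 libraries of c-di-GMP-treated cells were compared with 4 libraries of cells given the vehicle, phosphate-buffered saline, for the same time. All 8 came from cells of this single line grown in DMEM with 10% serum. Nothing in the labels tells separate cultures from repeat libraries, and p-values therefore reflect library-to-library spread alone, which may be technical. In bulk RNA, fewer cells with a transcript and less of it per cell cannot be told apart.

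Chaperones bind unfolded proteins and let them fold without clumping. HSP70 proteins (HSPA genes) take up short exposed stretches, handed over by J-domain proteins (DNAJ genes), and pass some clients on to HSP90. The chaperonin CCT, a closed double ring of 8 different subunits, folds actin and tubulin, which prefoldin brings to it. Mitochondria have their own HSP70, HSP60 with its lid HSP10, and HSP90. When unfolded proteins build up, the transcription factor HSF1 binds heat shock elements, which are repeats of GAA and TTC, and raises the inducible members of these families.

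The heat shock elements of the promoters are shown for the genes on which the results turn. For 32 of the 35 genes the RefSeq table of GRCh38.p14 held promoter windows of 300 bases, most of them upstream of the transcript start. Windows were searched for paired repeats (GAANNTTC or TTCNNGAA) and for triple repeats (GAANNTTC followed by NN and GAA, or TTCNNGAA followed by NN and TTC). Each pair reads the same on both strands, and the triples are each other's reverse complement, so that the search covered both strands. A pair was found in at least 1 window of 16 of the 32 genes, against 16.2% of all 27305 genes with windows. A triple was found in 6 of the 32, against 0.608% of all genes. The 6 were HSPA8, DNAJA1, HSP90AA1, HSP90AB1, HSPD1 and SERPINH1. The windows below are written 5′ to 3′ on the strand of the gene, with the triple in capitals, or the pair where there is no triple. HSPD1 (chr2:197499791-197500090, minus strand) and HSPE1 (chr2:197500129-197500428, plus strand) are divergent neighbours. The HSPD1 window printed lies 38 bases from that of HSPE1, and a second HSPD1 window without a triple (chr2:197500225-197500524) shares 204 bases with it. They are shown because both genes rose in the 7 libraries without vehicle replicate 3.
HSPD1: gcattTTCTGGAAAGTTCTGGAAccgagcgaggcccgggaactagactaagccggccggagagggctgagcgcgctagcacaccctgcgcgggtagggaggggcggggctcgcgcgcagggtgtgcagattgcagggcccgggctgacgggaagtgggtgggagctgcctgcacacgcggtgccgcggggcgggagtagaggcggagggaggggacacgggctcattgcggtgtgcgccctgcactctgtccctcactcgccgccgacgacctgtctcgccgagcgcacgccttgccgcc
HSPE1: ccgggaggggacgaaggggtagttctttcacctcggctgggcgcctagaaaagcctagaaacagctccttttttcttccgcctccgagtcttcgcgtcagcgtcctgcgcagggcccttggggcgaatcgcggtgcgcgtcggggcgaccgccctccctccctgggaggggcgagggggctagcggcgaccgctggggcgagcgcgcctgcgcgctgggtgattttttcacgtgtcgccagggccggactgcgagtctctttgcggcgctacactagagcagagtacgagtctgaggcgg
HSPA8 (chr11:123062087-123062386, minus strand), which rose, and SERPINH1 (chr11:75562003-75562302, plus strand), which fell, both hold a triple. Rise and fall are those of the 7 libraries without vehicle replicate 3, before any correction for GC content. With that correction SERPINH1 missed the threshold, and over all 8 libraries neither gene passed it.
HSPA8: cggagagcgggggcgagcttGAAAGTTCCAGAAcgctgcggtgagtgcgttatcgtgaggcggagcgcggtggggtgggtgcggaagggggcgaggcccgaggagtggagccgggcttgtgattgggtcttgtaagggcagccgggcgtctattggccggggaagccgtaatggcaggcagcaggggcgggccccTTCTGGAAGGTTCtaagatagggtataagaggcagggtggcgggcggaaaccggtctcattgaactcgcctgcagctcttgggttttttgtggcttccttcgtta
SERPINH1: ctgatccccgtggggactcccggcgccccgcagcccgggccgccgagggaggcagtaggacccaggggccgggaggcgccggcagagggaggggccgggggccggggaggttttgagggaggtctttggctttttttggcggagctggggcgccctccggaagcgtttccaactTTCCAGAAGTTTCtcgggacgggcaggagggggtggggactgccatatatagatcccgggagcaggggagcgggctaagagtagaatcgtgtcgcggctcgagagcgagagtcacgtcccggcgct
HSPA1A (chr6:31815293-31815592, plus strand) and HSPA1B (chr6:31827488-31827787, plus strand) encode the stress-inducible HSP70. They are shown because their windows are alike at 277 of 301 aligned positions and hold the same pair.
HSPA1A: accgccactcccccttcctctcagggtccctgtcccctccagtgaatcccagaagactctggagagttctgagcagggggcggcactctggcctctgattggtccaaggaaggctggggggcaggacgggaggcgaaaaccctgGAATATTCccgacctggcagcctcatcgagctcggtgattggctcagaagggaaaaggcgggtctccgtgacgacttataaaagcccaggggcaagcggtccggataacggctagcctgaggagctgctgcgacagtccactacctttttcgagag
HSPA1B: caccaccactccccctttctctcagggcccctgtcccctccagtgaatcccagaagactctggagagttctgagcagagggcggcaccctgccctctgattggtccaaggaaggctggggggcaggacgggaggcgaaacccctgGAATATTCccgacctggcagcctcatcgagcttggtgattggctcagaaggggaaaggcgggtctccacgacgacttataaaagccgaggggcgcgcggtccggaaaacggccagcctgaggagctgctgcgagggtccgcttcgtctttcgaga
In the HSPE1 window neither motif was found. A match is a run of letters and not a measured site of binding.

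Before the fold changes, 1 library has to be set apart. Vehicle replicate 3 differed from the other 7 libraries in a large part of the transcriptome, and most of all in short transcripts. Library totals were 16151360 to 17693532 counts with c-di-GMP and 16864714 to 18040010 with vehicle. By these totals, without TMM scaling, 3 counts stood for 0.166 to 0.186 CPM, which covers counting error only. All 35 genes lay far above this floor. In vehicle replicate 3, 465 genes were at 0, against 2 to 9 in the others. RNA of the mitochondrial genome took 4.74% to 5.00% of the counts with c-di-GMP, against 3.58% to 4.45% in vehicle replicates 1, 2 and 4 and 1.40% in vehicle replicate 3. Its part in the results was not tested. Levels are counts scaled to library size (CPM) after TMM scaling over all 8 libraries. Of mesenchymal markers, VIM lay between 116 and 411 FPKM, CD44 between 79.1 and 101, AXL between 77.7 and 241 and ZEB1 between 3.19 and 8.82 FPKM over the 8 libraries. Of epithelial and luminal markers, the cadherin CDH1 stood at 0.252 to 0.628 FPKM, while the keratins KRT8 and KRT18 lay at 94.5 to 220 and 76.2 to 195 FPKM, EPCAM at 4.36 to 22.5 and GATA3 at 2.62 to 6.93 FPKM. The highest KRT8, KRT18, EPCAM, GATA3, VIM and CD44 levels were those of vehicle replicate 3, and so were the lowest CDH1, AXL and ZEB1 levels. Its counts came to 146% of the total used for its FPKM, against 92.4% to 94.4% in the other libraries. The same share of counts thus gives a higher FPKM there.

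Together the 35 genes took 1.295% to 1.36% of the counts in c-di-GMP libraries, against 1.19% to 1.24% in vehicle replicates 1, 2 and 4. They took 1.76% in vehicle replicate 3. By length-scaled level (FPKM), the cytosolic HSP90 gene HSP90AB1 was the highest, at a mean of 821 with c-di-GMP and 772 in vehicle replicates 1, 2 and 4. The constitutive HSP70 gene HSPA8 followed at 342 with c-di-GMP and 291 with vehicle, and HSP90AA1 at 295 FPKM with c-di-GMP and 257 FPKM with vehicle. At the low end were the mitochondrial HSP90 gene TRAP1, at 10.0 FPKM in both groups, and HSPA1A, at 9.68 FPKM with c-di-GMP and 12.6 FPKM with vehicle. The median level of the 35 genes was 267 CPM over the 7 libraries without vehicle replicate 3, against 21.7 CPM for all genes tested. For these medians TMM scaling was over those 7 libraries alone.

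With all 8 libraries, none of the 35 genes passed the threshold of an adjusted p of 0.05 in edgeR's quasi-likelihood test, and 0% of all 15415 genes tested did. DESeq2 and limma-voom called 0 of the genes as well. DESeq2 called 1.23% of the 10898 genes it gave an adjusted p, and limma-voom 0% of all genes. For PFDN2, PFDN4, PFDN5 and HSPE1 at least, DESeq2 gave no usable result, so its 0 does not cover all 35. HSPA1A was the only one with an unadjusted p under 0.05, against 6.23% of all genes. The log2 fold change was negative for 26 of the 35, against 8562 of all 15415 genes. The median was -0.24, against a median of -0.05 over all genes. When library totals replaced TMM scaling the median of all genes moved by 0.13, and 18 of the 35 were negative. Without vehicle replicate 3, 27 of the 35 were positive, against 7854 of all 15647 genes. In that library 18 of the 35 stood at least 2-fold higher than the mean of vehicle replicates 1, 2 and 4, against 23.6% of all genes, and 1 stood at least 2-fold lower, against 27.6%. The co-chaperonin gene HSPE1 was 17.9 times higher there, PFDN5 was 14.0 times and PFDN4 11.7 times higher. TRAP1 was 5.47 times lower. The median log2 ratio of vehicle replicate 3 to the other vehicle libraries was 2.79 for the prefoldins, 1.47 for the mitochondrial group, 1.28 for the CCT subunits and 0.42 for the heat-inducible group. Gene length moved with it. Over all genes the median was 0.77 below 2000 bases and -0.56 from 6000 bases up, and the 4 chaperone genes below 2000 bases had a median of 3.17. Longer chaperone genes did not follow this trend below 0: the 12 of 4000 to 6000 bases had a median of 0.79, against -0.088 over all genes of that length, and the 3 of 6000 bases or more had 0.71. The part of length in these ratios was not tested.

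**Figure D1:**
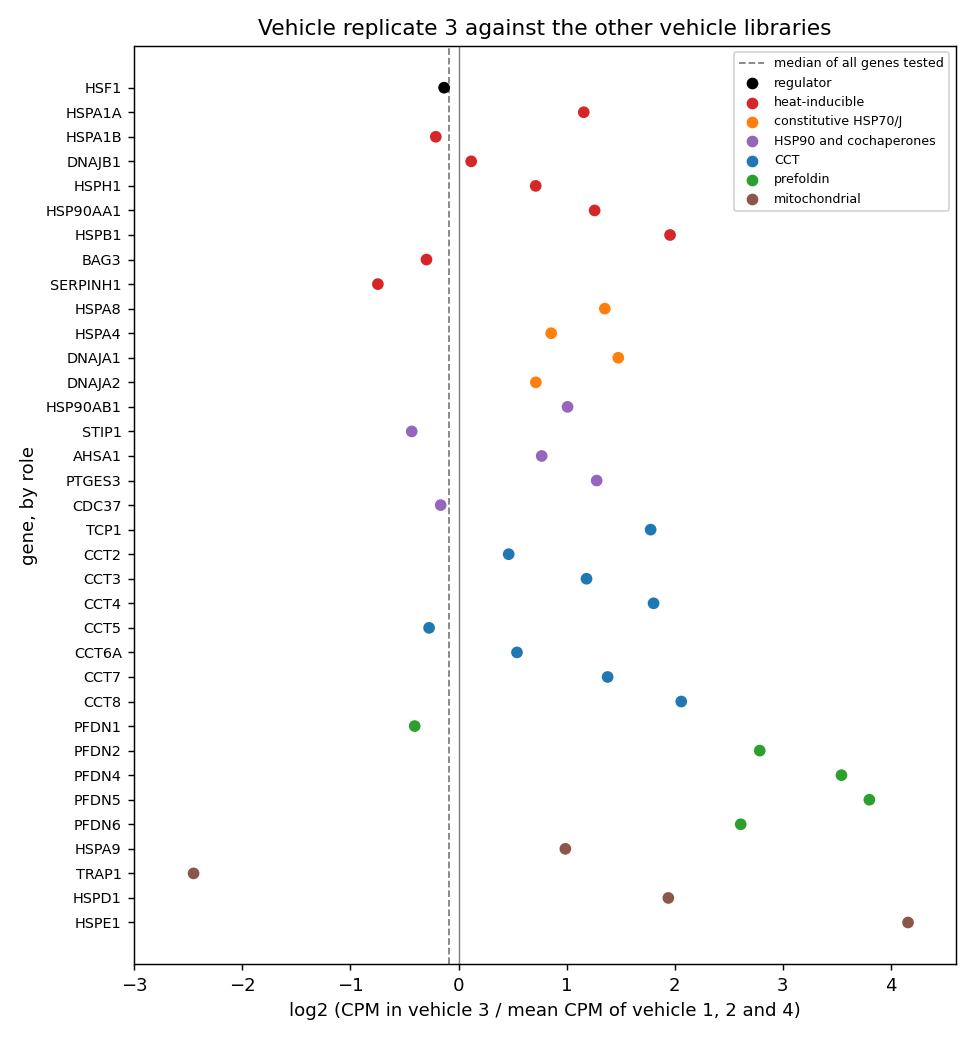
Log2 ratio of the CPM in vehicle replicate 3 to the mean CPM of vehicle replicates 1, 2 and 4, for each of the 35 genes in rows by role group; the dashed line is the median of all genes tested. HSPE1, PFDN5 and PFDN4 lie farthest to the right and TRAP1 farthest to the left.

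The comparison was therefore also made with 7 libraries, 4 of c-di-GMP against vehicle replicates 1, 2 and 4. There 16 of the 35 genes rose, where 13.5% of all 15647 genes tested rose, and 6 fell, where 16.2% did, so that 22 passed the threshold against 29.6% of all genes. An unadjusted p under 0.05 was reached by 27 of the 35, against 39.7% of all genes. Their median log2 fold change was 0.11, against 0.0014 over all genes. All changes were small, with the largest, that of HSPA1A, at -0.40. The constitutive HSP70 and J-domain genes, most CCT subunits and the mitochondrial HSP60 and HSP10 were higher with c-di-GMP. HSF1 itself and 5 heat-inducible genes were lower. In CPM 22 of the 35 genes were higher in every c-di-GMP library than in each of the 3 vehicle libraries, against 17.9% of all genes, and 5 were lower in every one, against 18.2%. With vehicle replicate 3 included, 1 gene was higher in this way, against 6.93% of all genes, and 3 were lower, against 7.29%. Of the 16 that rose, 13 had a negative log2 fold change over all 8 libraries, and of the 6 that fell, 1 had a positive one.

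**Figure D2:**
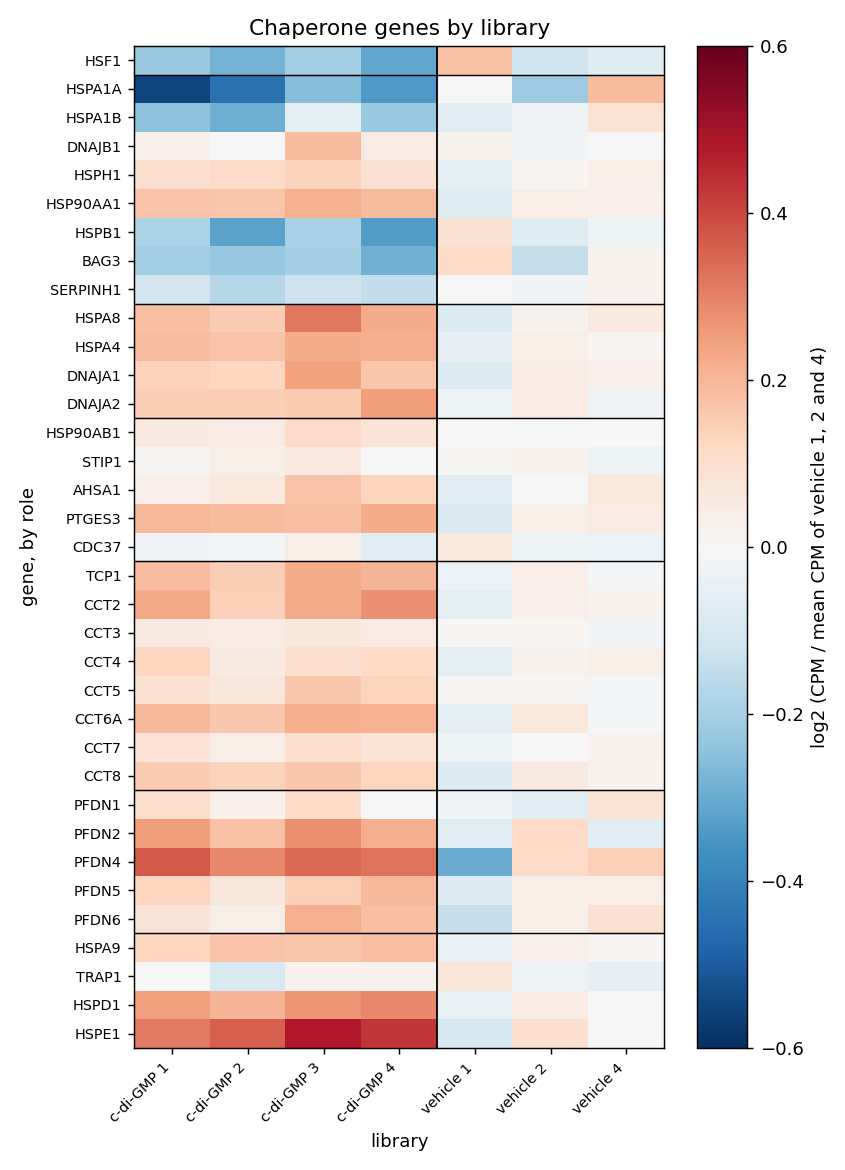
Log2 ratio of the CPM in each library to the mean CPM of vehicle replicates 1, 2 and 4, for the 35 genes in rows by role group, with the 4 c-di-GMP libraries left of the 3 vehicle libraries. HSF1, HSPA1A, HSPB1, BAG3 and SERPINH1 are blue in all c-di-GMP libraries, and the constitutive HSP70, CCT, prefoldin and mitochondrial blocks are mostly red.

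These changes were ordered by the GC content of the transcripts, as they were over all genes. The 6 that fell had a GC content of at least 56.5% in their longest transcript, and the 16 that rose had at most 52.6%. Over all genes of 35 to 40% GC, 31.4% rose and 0.60% fell, and of the 2 chaperone genes there 1 rose and 0 fell. Over all genes of 40 to 45% GC, 22.6% rose and 1.25% fell, and of the 11 chaperone genes in that range 10 rose and 0 fell. At 45 to 50% GC, 12.8% of all genes rose and 4.33% fell, and of 6 chaperone genes 3 rose and 0 fell. At 50 to 55% GC, 5.15% of all genes rose and 15.9% fell, and of 6 chaperone genes 2 rose and 0 fell. Their median log2 fold change there was 0.087, against -0.065 over all genes. Over all genes of 55 to 60% GC, 2.95% rose and 31.6% fell, and of the 8 chaperone genes there 0 rose and 4 fell. Over all genes of 60 to 65% GC, 1.29% rose and 54.8% fell, and the 2 chaperone genes there, HSF1 and HSPB1, fell. With the GC trend of every single library removed, 16 of the 35 genes rose, against 8.58% of all genes, and 0 fell, against 6.62%. Of these 16, 10 had also risen before the correction, and 6 had not. The median log2 fold change was then 0.10, against -0.0029 over all genes. With GC and length trends both removed, 14 rose, against 7.66% of all genes, and 2 fell, against 5.74%. The correction removes any real change that follows GC content too, and its part in the result was not tested further.

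**Figure D3:**
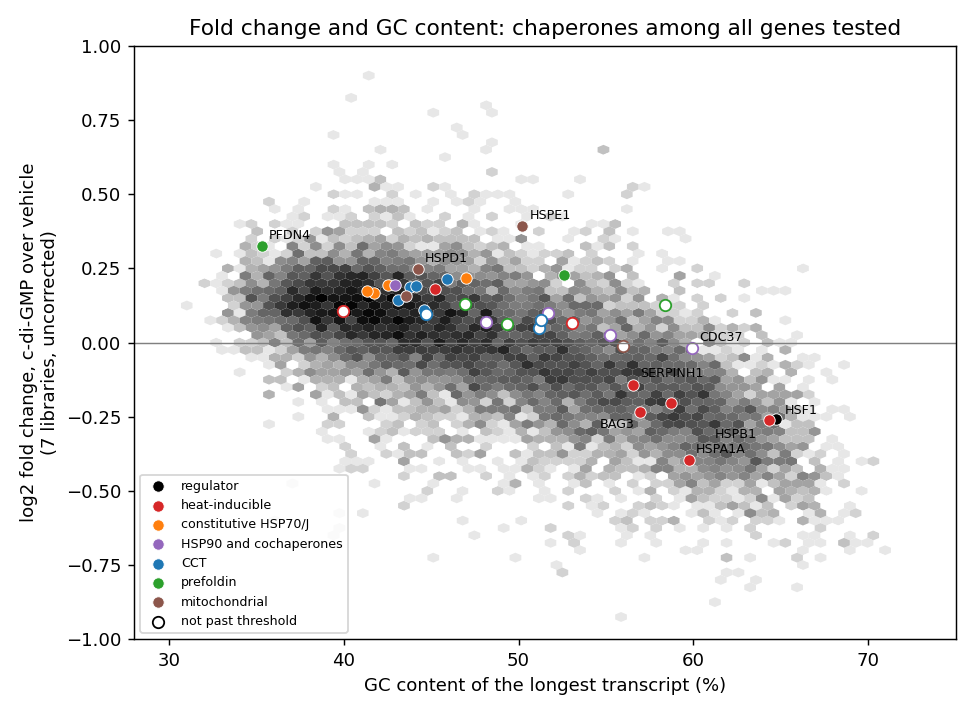
Log2 fold change of c-di-GMP over vehicle in 7 libraries (uncorrected) against the GC content of each gene's longest transcript. Grey hexagons count all genes tested on a log scale, and coloured points are the 35 chaperone genes, filled where they passed the threshold. The genes that fell lie at 56.5% GC or above, and those that rose at 52.6% or below.

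HSF1, the regulator, was lower with c-di-GMP before the correction only. Its level was 114, 109.6, 116 and 108 CPM in the c-di-GMP libraries, against 150.4, 123 and 127 CPM in vehicle replicates 1, 2 and 4. Vehicle replicate 1 was the highest, all 4 c-di-GMP libraries were below the 3 vehicle libraries, and vehicle replicate 3, at 122 CPM, was above them too. The log2 fold change was -0.26 ± 0.06 (SE; edgeR adjusted p = 0.00102). Without vehicle replicate 1 it was -0.16 and still past the threshold. GC-corrected it stood at 0.08 ± 0.03 (edgeR adjusted p = 0.121), of the other sign. The HSF1 transcript has the highest GC content of the 35, at 64.7%.

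Of the 8 heat-inducible genes measured, 5 fell and 1 rose, against 16.2% and 13.5% of all genes. Their median log2 fold change was -0.17, against 0.0014 over all genes. GC-corrected, 0 fell and 2 rose, against 6.62% and 8.58% of all genes, and the median was -0.013. With the length trend taken out too, 2 fell and 2 rose, against 5.74% and 7.66%, and the median was -0.012. The stress-inducible HSP70 gene HSPA1A (GRCh38 chromosome 6, 31815464 to 31817946) stood at 21.7, 23.2, 26.5 and 25.0 CPM with c-di-GMP, against 31.7, 27.2 and 36.2 CPM in vehicle replicates 1, 2 and 4. The groups did not overlap, and vehicle replicate 3 was far above both at 70.7 CPM. It fell by 0.40 ± 0.08 on the log2 scale (SE; edgeR adjusted p = 7.33e-04). GC-corrected it stood at -0.19 ± 0.08 (edgeR adjusted p = 0.0987), and with the length trend taken out as well it fell again, by 0.25 (edgeR adjusted p = 0.0224). Its copy HSPA1B stood at 51.5, 49.8, 58.4 and 52.1 CPM with c-di-GMP, against 58.3, 59.96 and 64.6 CPM in the 3 vehicle libraries. Here c-di-GMP replicate 3 was at the level of vehicle replicate 1, and the fall of 0.20 ± 0.06 on the log2 scale (edgeR adjusted p = 0.00877) came to -0.03 ± 0.06 GC-corrected (edgeR adjusted p = 0.787). Without vehicle replicate 4 it missed the threshold before correction too, at -0.16 (edgeR adjusted p = 0.0702). The coding sequences of both genes are identical at 1919 of 1923 bases, so that reads cannot be assigned to one or the other with certainty, and 36.5% of the exon bases of HSPA1B are shared with another annotated gene on the same strand. Their separate values are therefore uncertain.

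The other genes of this group that fell are a small heat shock protein, a co-chaperone and a chaperone of collagen. HSPB1, which encodes the small heat shock protein HSP27, stood at 138, 126, 137 and 124 CPM with c-di-GMP, against 167, 149 and 154 CPM in vehicle replicates 1, 2 and 4. All c-di-GMP libraries were below the vehicle libraries, and vehicle replicate 3 was at 609 CPM. It fell by 0.26 ± 0.05 on the log2 scale (edgeR adjusted p = 2.79e-04). It stood at 0.06 ± 0.04 GC-corrected (edgeR adjusted p = 0.260), with the sign turned. BAG3, which links HSP70 to small heat shock proteins and to autophagy, stood at 125, 124, 126 and 119 CPM with c-di-GMP, against 157, 131 and 147 CPM in the same vehicle libraries. Vehicle replicate 3, at 118 CPM, was below all of them, so that the groups separated only without it. BAG3 fell by 0.23 ± 0.05 on the log2 scale (edgeR adjusted p = 0.0011). It stood at -0.10 ± 0.04 GC-corrected (edgeR adjusted p = 0.0823). With the length trend taken out as well it passed the threshold again, at -0.15 (edgeR adjusted p = 0.0066). HSPA1A and BAG3 were the 2 genes that fell under this last correction. SERPINH1, the collagen chaperone HSP47 of the endoplasmic reticulum, fell by 0.14 ± 0.04 on the log2 scale (edgeR adjusted p = 0.00811), against -0.02 ± 0.03 after the GC correction (edgeR adjusted p = 0.810).

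The remaining inducible genes did not fall. HSP90AA1, the inducible cytosolic HSP90, was the single one to rise before correction. It stood at 1533, 1532, 1582 and 1555 CPM with c-di-GMP, against 1298, 1401 and 1392 CPM in vehicle replicates 1, 2 and 4. Its log2 fold change was 0.18 ± 0.04, and 0.12 ± 0.03 GC-corrected (edgeR adjusted p = 0.00161 and 0.0104). Vehicle replicate 3 held 3265 CPM. DNAJB1, the J-domain partner of the inducible HSP70, had a log2 fold change of 0.07 ± 0.05, with a 95% interval from -0.03 to 0.16, and passed the threshold GC-corrected only, at 0.13 ± 0.04 (edgeR adjusted p = 0.0178). HSPH1, an HSP110 that releases nucleotide from HSP70, had 0.11 ± 0.04 and -0.01 ± 0.03 GC-corrected (edgeR adjusted p = 0.0513 and 0.888).

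**Figure D4:**
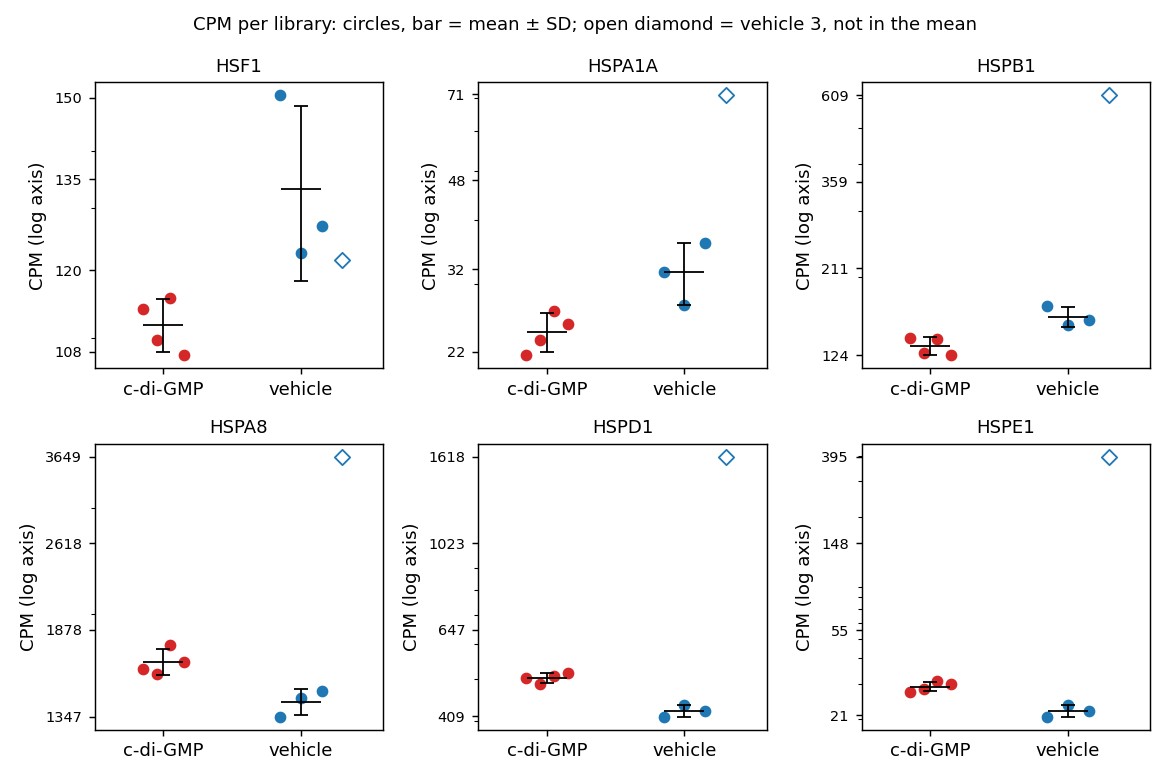
CPM per library, on log axes that differ between panels, for HSF1, HSPA1A, HSPB1, HSPA8, HSPD1 and HSPE1, with c-di-GMP left of vehicle; bars are the mean ± SD of 4 c-di-GMP libraries and of vehicle replicates 1, 2 and 4. Vehicle replicate 3 (open diamond) is far above the rest for 5 of the genes and among them for HSF1.

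All 4 constitutive HSP70 and J-domain genes rose, against 13.5% of all genes, with log2 fold changes of 0.17 to 0.22. HSPA8, the constitutive HSP70 also known as HSC70 (chromosome 11, 123057489 to 123063230), stood at 1619.8, 1588, 1776 and 1664 CPM with c-di-GMP, against 1347, 1447 and 1488 CPM in vehicle replicates 1, 2 and 4. Every c-di-GMP library was above the 3 vehicle libraries, while vehicle replicate 3 was at 3649 CPM. Its log2 fold change was 0.22 ± 0.05 (edgeR adjusted p = 9.08e-04), and 0.18 ± 0.04 GC-corrected (edgeR adjusted p = 0.00196). HSPA4, an HSP110 protein, stood at 276, 274, 283 and 282 CPM with c-di-GMP, against 235, 249 and 244 CPM in these vehicle libraries. The groups lay apart by more than the spread within either, and vehicle replicate 3 was at 439.6 CPM. HSPA4 rose by 0.20 ± 0.04, and by 0.10 ± 0.03 GC-corrected (edgeR adjusted p = 6.96e-04 and 0.0292). DNAJA1, a J-domain partner of HSPA8, stood at 283, 281, 304 and 289 CPM with c-di-GMP, against 244, 265 and 262 CPM, with 717 CPM in vehicle replicate 3. It rose by 0.17 ± 0.04 and missed the threshold GC-corrected, at 0.06 ± 0.03 (edgeR adjusted p = 0.00466 and 0.232). Its relative DNAJA2 did likewise, at 0.17 ± 0.05 and 0.07 ± 0.04 GC-corrected (edgeR adjusted p = 0.00736 and 0.301).

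Among constitutive HSP90 and its cochaperones, 1 of 5 genes rose before GC correction and 4 after it, against 13.5% and 8.58% of all genes. PTGES3, the cochaperone p23 that closes the HSP90 cycle, stood at 316, 314, 312 and 321 CPM with c-di-GMP, against 259, 282 and 284 CPM in vehicle replicates 1, 2 and 4. The groups did not overlap, and vehicle replicate 3 was at 668 CPM. PTGES3 rose by 0.20 ± 0.04, and by 0.10 ± 0.03 GC-corrected (edgeR adjusted p = 0.00102 and 0.0238). With the length trend taken out too it missed the threshold, at 0.07 (edgeR adjusted p = 0.0924). HSP90AB1, the constitutive HSP90, passed the threshold neither way: it stood at 2414, 2407, 2519 and 2469 CPM with c-di-GMP, against 2332, 2332 and 2323 CPM, with 4687 CPM in vehicle replicate 3. Though every c-di-GMP library was higher, the log2 fold change was 0.07 ± 0.04, with a 95% interval from -0.01 to 0.15 (edgeR adjusted p = 0.190). The ATPase activator AHSA1 stood at 120.4, 123, 133 and 129 CPM with c-di-GMP, against 113, 118 and 123 CPM, and vehicle replicate 3 was at 201 CPM. These groups overlapped. AHSA1 had 0.10 ± 0.05 and rose GC-corrected, by 0.14 ± 0.04 (edgeR adjusted p = 0.113 and 0.0183). With GC and length trends removed AHSA1 missed the threshold, at 0.099 (edgeR adjusted p = 0.0789). Of the 5 genes 2 then rose, against 7.66% of all genes. CDC37 and STIP1, of higher GC content, moved further with the correction. CDC37, which brings kinases to HSP90, stood at -0.02 ± 0.04 before it and rose by 0.19 ± 0.03 after it (edgeR adjusted p = 0.787 and 1.68e-04). STIP1, which joins HSP70 to HSP90, stood at 0.02 ± 0.04 before and rose by 0.13 ± 0.03 after (edgeR adjusted p = 0.687 and 0.00857).

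The 8 CCT subunits all had positive log2 fold changes, as did 7854 of all 15647 genes. Of the subunits 5 rose, against 13.5% of all genes. CCT2 stood at 219.8, 207, 219 and 227 CPM with c-di-GMP, against 181, 191 and 191 CPM in vehicle replicates 1, 2 and 4. CCT6A stood at 438, 428, 446 and 444 CPM with c-di-GMP, against 368, 401 and 381 CPM. TCP1, the first subunit, stood at 265, 258, 272 and 268 CPM with c-di-GMP, against 227, 239 and 232 CPM. For all 3 subunits the c-di-GMP libraries were above these vehicle libraries without overlap. Their log2 fold changes were 0.21 ± 0.04, 0.19 ± 0.04 and 0.19 ± 0.04 (edgeR adjusted p = 5.04e-04, 9.56e-04 and 0.00102), and 0.16 ± 0.03, 0.11 ± 0.03 and 0.11 ± 0.03 GC-corrected, past the threshold each time. CCT8 and CCT5 rose by 0.14 ± 0.04 and 0.11 ± 0.04 and missed the threshold GC-corrected (edgeR adjusted p = 0.292 and 0.491). CCT7, at 0.07 ± 0.04, rose only GC-corrected, by 0.11 ± 0.03 (edgeR adjusted p = 0.0196), and missed the threshold at 0.085 with GC and length trends removed (edgeR adjusted p = 0.0504). The 5 rises became 4 with the GC correction and 3 with the GC and length correction, against 8.58% and 7.66% of all genes. CCT3 and CCT4 passed the threshold neither way, at 0.05 ± 0.04 and 0.10 ± 0.04. The subunits thus ranged from 0.05 to 0.21 before correction, and from 0.025 to 0.16 GC-corrected. Each CCT ring holds 1 copy of each, and differences between subunits were not tested.

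In vehicle replicate 3 the transcript levels of the CCT subunits shifted by unlike amounts. CCT8 was 4.17 times, CCT4 3.49 times and TCP1 3.43 times the mean of the other vehicle libraries. CCT2 was 1.38 times and CCT6A 1.45 times that mean, and CCT5 was 1.21 times lower. Within vehicle replicates 1, 2 and 4 the same genes varied far less, CCT8 between 241 and 264 CPM and CCT2 between 181 and 191 CPM. CCT5 was the 1 gene of the 35 whose c-di-GMP libraries, at 442 to 472 CPM, were above all 4 vehicle libraries, which held 349 CPM in replicate 3 and 418 to 424 CPM in the others. The CCT5 count is uncertain because 30.1% of its exon bases overlap a gene on the other strand, and whether strand was kept is not stated.

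The 5 prefoldin genes had positive log2 fold changes too, and 2 rose, against 13.5% of all genes. PFDN4 stood at 34.8, 32.9, 34.1 and 33.8 CPM with c-di-GMP, against 21.9, 29.2 and 29.8 CPM in vehicle replicates 1, 2 and 4. Vehicle replicate 1 was the low one, and without it the log2 fold change of 0.33 ± 0.08 came to 0.20. GC-corrected PFDN4 just missed the threshold, at 0.19 ± 0.06 (edgeR adjusted p = 0.00252 and 0.0506). PFDN2 stood at 69.3, 65.8, 70.7 and 67.6 CPM with c-di-GMP, against 55.5, 63.2 and 55.7 CPM, a rise of 0.23 ± 0.05 that came to 0.29 ± 0.05 GC-corrected (edgeR adjusted p = 0.002 and 1.71e-04). PFDN5 stood at 65.7, 63.1, 66.3 and 68.9 CPM with c-di-GMP, against 56.9, 61.6 and 61.8 CPM. Its groups lay close together without overlap, and its 0.13 ± 0.05 missed the threshold (edgeR adjusted p = 0.0520). In vehicle replicate 3 PFDN4, PFDN2 and PFDN5 were at 315, 402 and 839 CPM, so that over all 8 libraries they stood at -1.54 ± 0.88, -1.07 ± 0.68 and -1.95 ± 0.95 (edgeR adjusted p = 0.623 each). PFDN6 rose GC-corrected only, by 0.29 ± 0.06, against 0.13 ± 0.06 before (edgeR adjusted p = 0.00128 and 0.103), and 32.2% of its exon bases overlap genes on the other strand. PFDN1 had 0.06 ± 0.05, and 0.06 ± 0.04 GC-corrected.

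Of the 4 mitochondrial chaperone genes 3 rose, against 13.5% of all genes. The HSP60 and HSP10 pair kept its rise under the GC correction and the GC and length correction. HSPE1 (chromosome 2, 197499994 to 197503457), which encodes the lid HSP10, stood at 27.4, 28.3, 30.8 and 29.7 CPM with c-di-GMP, against 20.7, 23.6 and 22.04 CPM in vehicle replicates 1, 2 and 4. HSPD1 (chromosome 2, 197486581 to 197516737), which encodes the HSP60 barrel, stood at 500.1, 485, 506 and 515 CPM with c-di-GMP, against 409, 434 and 421 CPM. All c-di-GMP libraries were above these vehicle libraries for both genes. HSPE1 had the largest rise of the 35, at 0.39 ± 0.07 (95% interval 0.25 to 0.53; edgeR adjusted p = 1.05e-04), and its GC-corrected rise was 0.41 ± 0.06 (edgeR adjusted p = 5.96e-05). HSPD1 rose by 0.25 ± 0.04, and by 0.17 ± 0.03 GC-corrected (edgeR adjusted p = 5.65e-05 and 4.02e-04). With the length trend taken out as well they rose by 0.33 and 0.16 (edgeR adjusted p = 2.63e-04 and 2.01e-04). Vehicle replicate 3 was the exception, with 395 CPM of HSPE1 and 1618 CPM of HSPD1, far above every other library. Over all 8 libraries the log2 fold changes were thus -1.99 ± 1.03 and -0.52 ± 0.47, neither past the threshold. The HSPE1 count is also uncertain because 9.71% of its exon bases lie in the readthrough gene HSPE1-MOB4 and 14.2% overlap HSPD1 on the other strand. In addition, 26 pseudogenes carry its name. Pseudogenes are named after other genes that rose too, among them HSPD1 and HSPA8 with 17 each, DNAJA1 with 6 and PTGES3 with 5. Their counts share this limit.

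HSPA9, the mitochondrial HSP70 or mortalin, stood at 395, 406, 405 and 409 CPM with c-di-GMP, against 351, 369 and 364 CPM in vehicle replicates 1, 2 and 4. Its groups did not overlap, and vehicle replicate 3 was at 717 CPM. HSPA9 rose by 0.16 ± 0.04 and missed the threshold GC-corrected, at 0.07 ± 0.03 (edgeR adjusted p = 0.00367 and 0.106), but passed it with the length trend taken out as well, at 0.11 (edgeR adjusted p = 0.0082). Before correction TRAP1, the HSP90 of mitochondria, did not follow the other 3. It averaged 52.6 ± 1.98 CPM with c-di-GMP (SD, n = 4) and 52.9 ± 2.40 CPM in the vehicle libraries (SD, n = 3). Its log2 fold change of -0.01 ± 0.05 had a 95% interval from -0.12 to 0.10 (edgeR adjusted p = 0.901). GC-corrected it stood at 0.10 ± 0.05 (edgeR adjusted p = 0.128), and with the length trend taken out as well at 0.11 (edgeR adjusted p = 0.108). These values were near those of HSPA9, at 0.07 and 0.11. TRAP1 was at 9.66 CPM in vehicle replicate 3. Its exons overlap DNASE1 on the other strand over 29.3% of their bases.

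**Figure D5:**
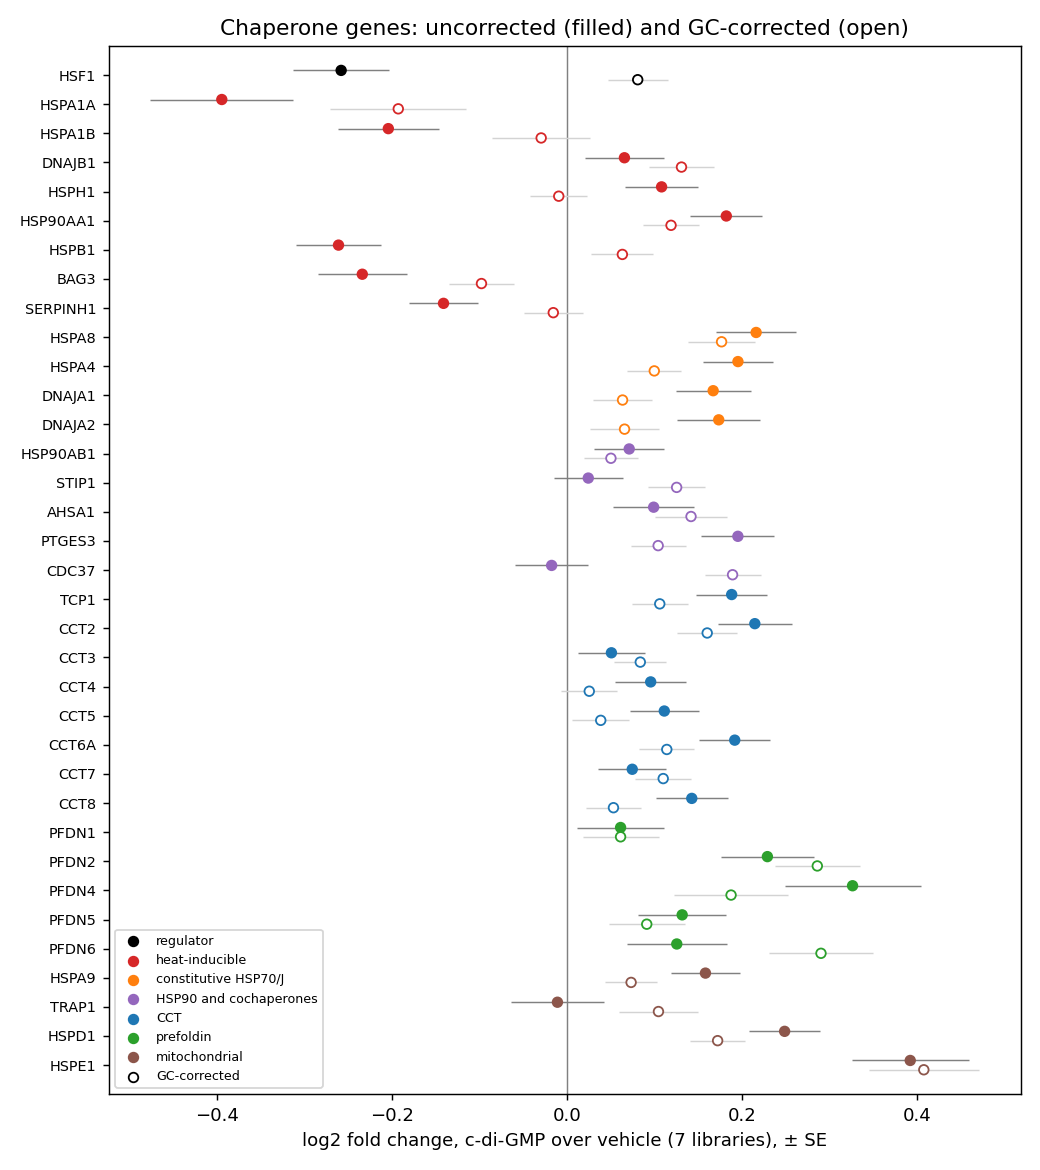
Log2 fold change of c-di-GMP over vehicle in 7 libraries, with the standard error, for each of the 35 genes in rows by role group; filled points are uncorrected and open points GC-corrected. HSF1, HSPB1 and HSPA1B move from about -0.2 towards or past 0 with the correction, CDC37 and PFDN6 move to the right, and HSPE1 stays near 0.4.

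Heat shock elements were found among the genes that rose and among those that fell in the 7 libraries before correction. Of the genes with a promoter window, a pair was found in 7 of the 14 that rose, 4 of the 5 that fell and 5 of the 13 that passed the threshold in neither direction. A triple was found in 4, 1 and 1 of them in the same order. These counts describe the windows and were not tested.

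Genes of the same pathway outside the list were mixed as well. Of 85 further heat shock factors, chaperones, cofactors and mitochondrial proteases, 77 were tested in the 7 libraries, and 24 rose and 13 fell, against 13.5% and 16.2% of all genes, with a median log2 fold change of 0.08. GC-corrected, 12 rose and 1 fell, against 8.58% and 6.62% of all genes. Of the 13 partners of chaperonin and prefoldin 6 rose and 2 fell. The missing prefoldin subunit VBP1 rose by 0.28 ± 0.05, and by 0.15 ± 0.04 GC-corrected, and the prefoldin-like UXT by 0.36 ± 0.08, and by 0.38 ± 0.07 GC-corrected (edgeR adjusted p = 2.32e-04, 0.0159, 9.97e-04 and 8.03e-04). Of the 22 cofactors of HSP70 and HSP90 7 rose and 5 fell. FKBP8, an immunophilin of the mitochondrial surface, fell by 0.34 ± 0.05. GC-corrected it stood at 0.05 ± 0.03, of the other sign (edgeR adjusted p = 0.302). STUB1, the ubiquitin ligase CHIP that marks HSP70 clients, fell by 0.29 ± 0.06 and stood at 0.06 ± 0.05 GC-corrected. Among the other mitochondrial chaperones and proteases 3 of 15 rose and 4 fell. The matrix protease LONP1 fell by 0.36 ± 0.05, against -0.07 ± 0.03 after the GC correction. TIMM44, which holds the mitochondrial HSP70 at the import channel, fell by 0.19 ± 0.05 and stood at 0.02 ± 0.04 GC-corrected.

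Of 16 further J-domain genes 4 rose and 2 fell, against 13.5% and 16.2% of all genes. With the GC correction 1 rose and 0 fell, against 8.58% and 6.62%. DNAJC8 rose by 0.26 ± 0.05, and by 0.19 ± 0.04 GC-corrected, whereas DNAJC5, a chaperone of synaptic vesicles, fell by 0.20 ± 0.05 and stood at -0.05 ± 0.03 GC-corrected. Of 6 further HSP70 and HSP110 genes 2 rose, the ribosome-bound HSPA14 by 0.31 ± 0.07 and HSPA4L by 0.21 ± 0.05, and with the GC correction HSPA14 alone rose, by 0.22 ± 0.07. HSBP1, which binds HSF1, rose by 0.20 ± 0.05, and by 0.13 ± 0.04 GC-corrected, and HSF2 had 0.16 ± 0.08 (edgeR adjusted p = 0.124). HSPB11 rose by 0.26 ± 0.07, and by 0.31 ± 0.06 GC-corrected, and HSPB8, a partner of BAG3, had 0.11 ± 0.11 (edgeR adjusted p = 0.493). In vehicle replicate 3 UXT, VBP1 and HSPB11 were at 105, 343 and 264 CPM, where the means of the other vehicle libraries were 16.4, 53.3 and 30.2 CPM, so that their log2 fold changes over all 8 libraries were -0.86 ± 0.65, -0.96 ± 0.65 and -1.29 ± 0.77.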

How the data were processed

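RNA was sequenced from 4 libraries of c-di-GMP-treated and 4 of vehicle-treated MDA-MB-231 cells. The submitters' processing notes name HISAT2 2.0.5 and featureCounts 1.5.0-p3, besides DESeq2 1.20.0, CASAVA 1.8 and fastp, without saying what each did. The notes name a mouse build, but all 16383 genes of the count table have the chromosome, start, end and strand of GENCODE v29 on GRCh38. The authors deposited whole-number counts per gene and FPKM, which equal counts over gene length up to 1 factor per library. Whether strand was kept is not stated.

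After filterByExpr (lowest count 10, lowest total 15) and TMM scaling, counts were tested with edgeR 4.0.16 (quasi-likelihood F test, R 4.3.3) over all genes, with treatment as the only term, Benjamini-Hochberg adjustment and a threshold of 0.05. Standard errors come from the F statistic. The GC correction entered each library's lowess trend (span 0.3) on transcript GC content (longest transcript of the gene) as an offset, and the length correction added a trend on gene length. Deposited FPKM values served for levels between genes and as alternatives, on log2 (FPKM + 1) and log2 (FPKM + 0.1) with limma 3.58.1. DESeq2 1.42.0, limma-voom, other scalings and filters, a replicate block and the removal of single libraries were tried too.

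The genes and lists were chosen with earlier results of these data known. Named with all values are HSF1, HSPA1A, HSPA1B and up to 3 genes of each role group with the smallest p in the 7 libraries, and up to 2 of each further list. Others are described by their fold changes. HSP90AA1 was given by library after its values were seen.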

Additional observations from a re-analysis of the deposited data

Results flagged for a closer look

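In 16 of the 21 genes given by library, vehicle replicate 3 stood so far from the other 3 vehicle libraries that Dixon's criterion for groups of 4 (a gap over 0.829 of the range) was met. Chance meets it in about 1 of 20 groups, and 42 groups of 4 were looked at. That rate does not apply to these groups, because the genes share this library and most were picked for a small p in the 7 libraries without it. All 16 were in the vehicle group and in the same library, and in each the library was the high one. The values of the small heat shock protein HSPB1 and of the HSP70 and J-domain genes HSPA8, HSPA4 and DNAJA1 were 609, 3649, 439.6 and 717 CPM there. Of HSP90 and its cochaperones, HSP90AA1 stood at 3265 CPM, HSP90AB1 at 4687 CPM, AHSA1 at 201 CPM and PTGES3 at 668 CPM. The CCT subunits TCP1 and CCT2 were at 798 and 259 CPM, and the prefoldins PFDN2, PFDN4 and PFDN5 at 402, 315 and 839 CPM. Of the mitochondrial chaperones, HSPA9, HSPD1 and HSPE1 were at 717, 1618 and 395 CPM. The other 5 genes given by library, HSF1, HSPA1A, HSPA1B, BAG3 and CCT6A, did not meet the criterion in the vehicle group.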

How the results depend on the processing

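Without vehicle replicate 3 the count of genes called went to 22, against 0 with all 8 libraries, and leaving out any 1 library gave 0 to 22. With 7 libraries, 16 genes rose and 6 fell, and leaving out 1 more gave 14 to 17 and 5 to 6. The GC correction left 0 falls, the GC and length correction 2, and the replicate block with GC correction 8 rises and 1 fall. Over all genes 6.62% fell with the GC correction and 5.74% with GC and length. For the replicate block, and for fits without a further library, the share over all genes is not given here. Over all 8 libraries, where no gene was called, signs turned often. Leaving out 1 library gave log2 fold changes from -0.40 to 0.22 for HSPA8, -0.16 to 0.20 for HSPA4, -0.52 to 0.17 for DNAJA1, -0.34 to 0.071 for HSP90AB1, -0.22 to 0.099 for AHSA1, -0.38 to 0.20 for PTGES3, -0.67 to 0.19 for TCP1, -1.34 to 0.23 for PFDN2, -1.87 to 0.33 for PFDN4, -2.28 to 0.13 for PFDN5, -0.26 to 0.16 for HSPA9, -0.71 to 0.25 for HSPD1 and -2.33 to 0.39 for HSPE1, each with its high end without vehicle replicate 3. For CCT6A they were -0.023 (without vehicle replicate 1) to 0.19. By library totals they turned for HSPA8 (0.016), HSPA4 (0.15), AHSA1 (0.076), PTGES3 (0.021) and HSPA9 (0.075). On the FPKM scale HSPA4 turned (0.0067 with a pseudocount of 1, 0.0075 with 0.1). With the GC correction HSF1 (0.14) and CCT6A (-0.027) turned, and with GC and length HSF1 (0.12), HSPA1B (0.070) and BAG3 (0.012). The replicate block with GC correction turned HSF1 (0.14) and CCT6A (-0.0071). With 7 libraries HSF1 turned with the GC correction (0.081), GC and length (0.085) and the replicate block with GC correction (0.071), and HSPB1 with the GC correction and with that block (0.063 and 0.048). Apart from the library and the trend that each alternative removes, the cause was not tested. Of the other 7-library values of the named genes, 366 kept direction and side of the threshold, 22 lost the threshold and 7 crossed it.

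Replicate numbers are shared by the groups. The deviations of same-numbered libraries correlated at 0.03, -0.01 and 0.02 in the 7 libraries, and at -0.0013, 0.22, 0.14 and -0.059 in all 8. Over all 8, libraries of unlike number gave -0.22 to 0.21. Such values cannot tell whether same-numbered libraries were made together, which the labels do not say. The replicate block alone gave 15 rises and 6 falls. The genes lay far above the counting floor, and the number of libraries limits the precision.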
